A study of Mus musculus with 12 samples.

Results

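The vehicle-treated microglia are the 3 arrays of a 12-array series whose titles mark them as vehicle controls. They were described here for their own sake, as the baseline of cultured microglia, and no treatment contrast was made. All cells were C57BL/6J microglia, taken from pups on postnatal day 7 by means of CD11b beads, kept for 3 days in serum-containing medium and treated for 6 h. The vehicle cultures received 0.4% DMSO and 0.001% ethanol, which carry no active agent. The 3 other groups, of 3 arrays each, received oligomeric Aβ42 at 10 µM, the EP4 receptor agonist AE1-329 at 100 nM, or both. The labels give 0.001% ethanol for the cultures with Aβ42 alone, 0.4% DMSO for those with AE1-329 alone and no solvent for those with both. Each treatment had 1 culture from each of 3 litters, so 1 array stands for cells of a litter and not of 1 mouse. CD11b is the product of Itgam, so the level of Itgam and of genes that go with it may partly have been set by the isolation, which was not tested.

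Microglia are the resident macrophages of the brain. They depend on signalling through the CSF1 receptor and on transcription factors such as PU.1, and a homeostatic gene set, which includes P2ry12, Tmem119 and Cx3cr1, marks them in the intact brain. That set is known to fall and phagocytic and lysosomal genes are known to rise when microglia are taken into culture with serum. As macrophages they carry receptors for damage signals, microbes, antibody and lipids, and they secrete complement, chemokines, cytokines and growth factors.

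Each value is a log2 level of 1 gene on 1 array, so 1 unit is a 2-fold difference in signal. Probe sets differ in brightness at the same amount of RNA, so levels and ranks are positions of signals, and where genes are named as the highest or lowest of a list this does not say which of their RNAs was more abundant. A percentile is the percent of the 19938 measured genes with a lower mean over the 3 vehicle arrays. As a stand-in for genes that are not in use, the 1015 olfactory receptor genes were taken, and a gene counted as above the olfactory receptor level where it passed their 95th percentile on each of the 3 arrays. That percentile lay at 6.66, 6.72 and 6.60 on vehicle replicates 1, 2 and 3, and the median gene at 7.41, 7.45 and 7.36. Above the level lay 12431 genes, or 62.3% of all, and this share is the background for every list count given here. Above the 99th percentile of olfactory receptor genes lay 43.8% of all genes, and above the 95th percentile of vomeronasal receptor genes 81.4%. Between these 3 levels, 11 of 37 lists changed side against the share of all genes, and 26 kept it. The 11 were the prostanoid, purinergic, neurotransmitter, nuclear and Fc receptors, the chemokines, and several lists of markers of other cells. Those were the border macrophage, astrocyte, oligodendrocyte and endothelial markers and the ependymal, choroid plexus and progenitor markers. No side is read for the 11. A second mark, the highest 10.0% of genes by mean, held 1994 genes. Of the olfactory receptor genes themselves, Olfr111 had 11.15, 10.93 and 10.96, and Olfr110 had 9.67, 9.20 and 9.42. These 2 were named because of their values, after these were seen, and no other olfactory receptor gene averaged above 9.

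**Figure D1:**
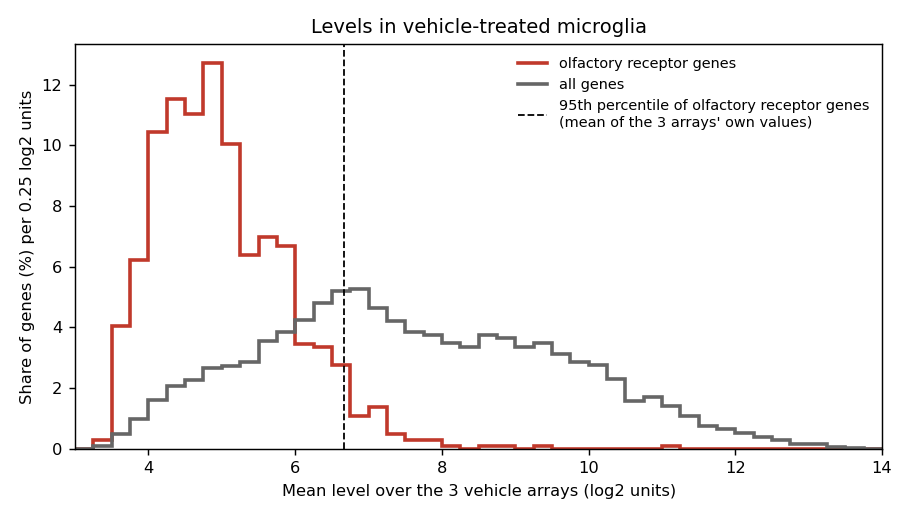
Distribution of mean levels over the 3 vehicle arrays (log2 units, horizontal axis) as the share of genes in each bin (percent, vertical axis), for the 1015 olfactory receptor genes in red and all 19938 genes in grey. The dashed line is the mean of the 3 arrays' 95th percentiles of olfactory receptor genes, and 62.3% of all genes lay above that percentile on each array.

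The highest signals came from genes of several kinds. Among the 30 highest named genes, Actb, which encodes cytoplasmic actin, had 13.69, 13.69 and 13.68, and the translation factor gene Eef1a1 had 13.57, 13.58 and 13.60. Ctsd, which encodes the lysosomal aspartic protease cathepsin D, had 13.62, 13.58 and 13.64. The SDs of these 3 genes over the arrays were 0.00 to 0.03. Lysosomal genes in the same group were Ctsb and Ctsa (cathepsins), Lgmn (legumain), Psap (prosaposin) and Laptm5 (a lysosomal membrane protein), each with an SD of at most 0.06. Cst3, which encodes the cathepsin inhibitor cystatin C, averaged 13.41 ± 0.04 (SD, n = 3). The ferritin chain genes Ftl1 and Fth1, which store iron, averaged 13.40 ± 0.05 and 13.37 ± 0.07. The lipid carrier Apoe, the glycoprotein gene Gpnmb, the lysozyme gene Lyz2, the C3a receptor gene C3ar1, the chemokine gene Ccl3, the complement gene C1qb and the Fc receptor adaptor Fcer1g were also among these 30, as were Vim, Wfdc17, Txn1, Akr1a1, Tpt1, Serinc3, Baiap2l1 and the small nuclear RNA Rn7sk. A set of 4 ribosomal protein genes completed the group, namely Rpl10, Rplp1, Rpl28 and Rps6. Over the family of cytosolic ribosomal protein genes, 47 of 60 measured members were in the highest 10.0%, and over the cathepsin family 9 of 21 were. The families were counted after the highest genes had been seen. Many ribosomal protein genes have near-identical pseudogenes whose transcripts the probes may share.

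Homeostatic microglia genes were well represented but uneven. Of 25 measured members, 22 (88.0%) were above the olfactory receptor level, against 62.3% of all genes, and 13 were in the highest 10.0%. The median percentile was 92.9. Trem2, a lipid-sensing receptor, had 12.65, 12.77 and 12.78, and Csf1r, the receptor for CSF1, had 12.48, 12.61 and 12.65. Cx3cr1, the fractalkine receptor gene, had 11.97, 11.84 and 11.70. They lay at percentiles 99.6, 99.4 and 98.1, with SDs of 0.07 to 0.14. The TAM receptor kinase gene Mertk (11.08 ± 0.05), its bridging ligands Gas6 (12.12 ± 0.08) and Pros1 (10.76 ± 0.11), the TGF-beta receptor gene Tgfbr1 (11.01 ± 0.04) and the ectonucleotidase gene Entpd1 (11.48 ± 0.08) were high as well. So were Olfml3, Fcrls, Selplg, Bin1 and Sparc, although Sparc, which encodes a secreted matrix protein, had 11.18, 11.73 and 10.69 and an SD of 0.52, the widest of the list.

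Several of the most used microglial markers lay in the middle of the range. P2ry12, the ADP receptor gene that guides process movement, had 9.50, 8.95 and 9.08, at percentile 75.8. Tmem119, a widely used surface marker, had 8.10, 8.47 and 8.42, at percentile 63.7. Sall1, a transcription factor of microglial identity, had 9.04, 8.83 and 8.91, at percentile 72.4. Gpr34 and Crybb1 lay at percentiles 60.3 and 61.0, and Adgrg1 and Golm1 at 72.8 and 71.7, whereas P2ry13 lay at 89.2. Lag3 was just above the olfactory receptor level with a mean of 6.89 ± 0.09. Siglech, a sialic acid-binding lectin gene, had 6.65, 6.80 and 6.68 and missed the level on replicate 1. Slc2a5, the fructose transporter gene, and Upk1b had means of 6.30 ± 0.07 and 6.27 ± 0.09 and were not above it. Because probe sets differ in brightness, these positions do not say that P2ry12 or Tmem119 RNA was scarcer than Trem2 RNA.

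Pan-macrophage genes occupied the top of the scale almost without exception. All 20 were above the olfactory receptor level and 19 were in the highest 10.0%, with a median percentile of 99.1. Tyrobp, the signalling adaptor of Trem2, had 12.89, 12.83 and 12.89. Cd68, a lysosomal glycoprotein gene of phagocytes, had 13.12, 13.02 and 13.13, and Adgre1, which encodes F4/80, had 12.40, 12.47 and 12.49. Itgam, the gene of the isolation handle CD11b, had 11.21, 11.31 and 11.36. The phagocyte oxidase genes Cybb and Cyba averaged 12.72 ± 0.05 and 12.29 ± 0.13, and the tetraspanin gene Cd53 and the cathepsin gene Ctss averaged 12.83 ± 0.03 and 12.33 ± 0.05. Cd14, Itgb2, Fcgr3, Fcgr1, Cd52, Ptprc and Coro1a were between percentiles 90.2 and 99.1. Aif1, which encodes the microglial stain IBA1, was the exception with 8.31, 8.06 and 8.04, at percentile 61.0.

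Of the myeloid transcription factors, 23 of 26 measured members (88.5%) were above the level and 12 were in the highest 10.0%. Spi1, which encodes PU.1, had 12.30, 12.20 and 12.21. Irf8, which acts with PU.1 in microglial development, had 11.38, 11.57 and 11.55, and Mef2a had 12.50, 12.29 and 12.34. They lay at percentiles 98.9, 97.1 and 99.1, with SDs of 0.05 to 0.11. Maf, Mef2c, Irf5, Runx1, Fli1, Smad4, Tfec and Mitf also lay in the highest 10.0%, and so did Cebpa, which had 10.37, 10.96 and 11.07. Bhlhe41, Ikzf1, Ets2, Smad3, Bhlhe40, Nr1h3, Cebpb, Sall3, Batf3 and Klf4 had means from 7.18 to 10.11. Not above the level were Gata6, which marks peritoneal macrophages (6.54, 6.49 and 6.10), Spic, which marks red pulp macrophages of the spleen (5.60, 5.53 and 5.82), and Cebpd (6.50, 6.82 and 6.81).

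**Figure D2:**
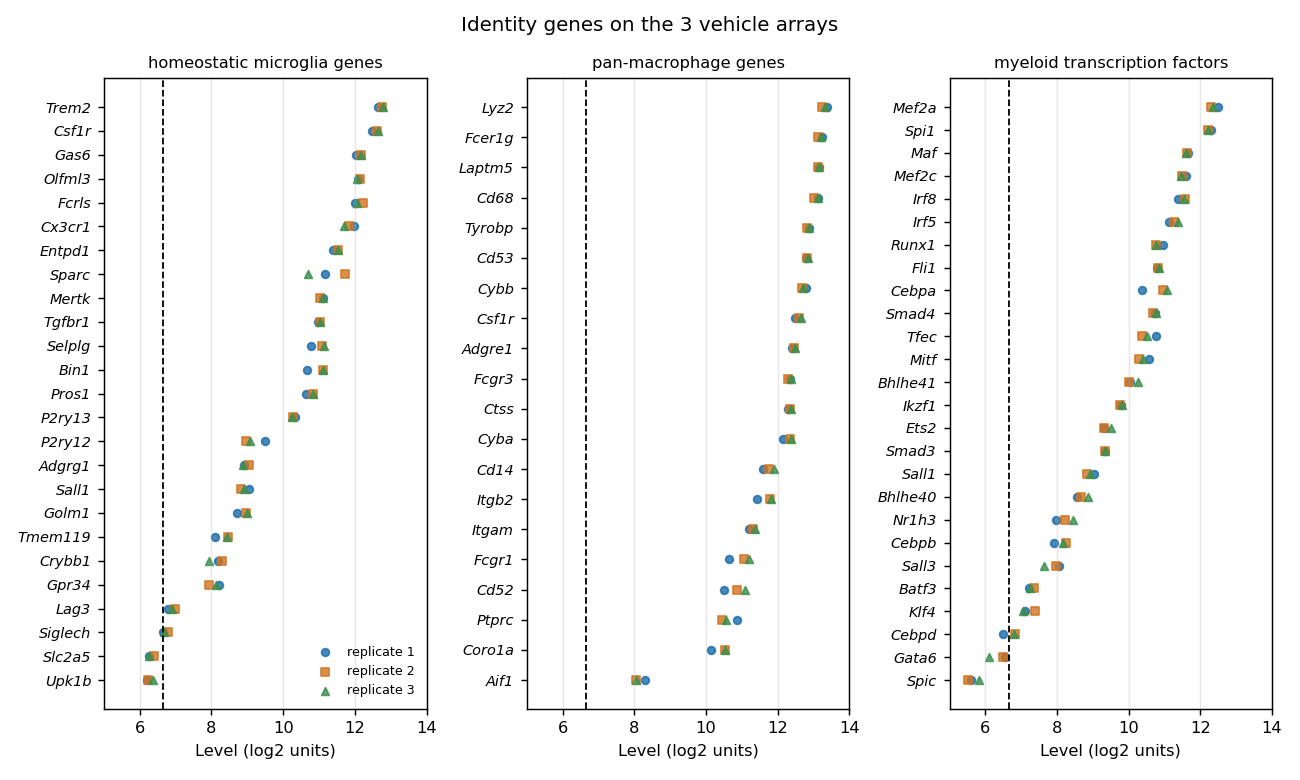
Level (log2 units) of each homeostatic microglia gene, pan-macrophage gene and myeloid transcription factor on the 3 vehicle arrays, 1 symbol per replicate, with genes sorted by mean and the dashed line at the mean olfactory receptor level. Of the pan-macrophage genes 20 of 20 lay above the level, of the homeostatic genes 22 of 25 and of the transcription factors 23 of 26.

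Promoter windows were read for motifs from RefSeq sequence of GRCm38.p6, 250 bases before to 50 after the annotated start, on both strands, and were available for 15614 measured genes. The search covered 13 motifs, namely GAGGAAGT and its shorter or shifted forms AGGAAGTG, GAGGAAG and GGAAGTG (bound by PU.1 and other ETS factors), a pair of GAAA 2 bases apart (the core of interferon-stimulated response elements), CACGTGAC and TCACGTG (E-boxes that TFEB and MITF bind), CATGTG (another E-box), the MAF recognition element and TGANTCA (AP-1 type), TGACGTCA (CREB type), TATAAA and CCGCCC. Several of them overlap in letters, so their counts are not separate. GAGGAAGT was found in 2 of 14 pan-macrophage promoters (14.3%), in 85 of 1634 promoters of the highest 10.0% of genes (5.20%), in 6 of 863 of olfactory receptor genes (0.695%) and in 506 of all (3.24%). Among other identity and state lists it was in 0 of 18 homeostatic, 0 of 18 transcription factor and 0 of 19 disease-associated promoters, and among markers of other cells it was in 4 of 12 neutrophil promoters (33.3%). Its shorter form GAGGAAG was in 42.9% of pan-macrophage, 27.8% of homeostatic and 27.8% of transcription factor promoters, against 15.1% of all. In the state lists GAGGAAG was in 15.8% of disease-associated, 15.8% of interferon-stimulated, 11.8% of cell cycle and 7.69% of immediate-early promoters. CCGCCC, a GC-box type sequence, was in 71.9% of promoters of the highest genes, in 1.04% of those of olfactory receptor genes and in 52.9% of all. TATAAA was in 9.55% of promoters of the highest genes, in 41.6% of those of olfactory receptor genes and in 13.6% of all. CACGTGAC was in 6.85%, in 0 of 863 and in 3.46% of the same sets. A match describes letters and does not show binding. Whether PU.1 bears on the level of any gene was not tested. The 2 pan-macrophage promoters with GAGGAAGT, of genes at percentiles 99.1 and 99.7, are printed with the match, here in its reverse complement, in capitals.
Ctss (chr3:95526536-95526835, plus strand): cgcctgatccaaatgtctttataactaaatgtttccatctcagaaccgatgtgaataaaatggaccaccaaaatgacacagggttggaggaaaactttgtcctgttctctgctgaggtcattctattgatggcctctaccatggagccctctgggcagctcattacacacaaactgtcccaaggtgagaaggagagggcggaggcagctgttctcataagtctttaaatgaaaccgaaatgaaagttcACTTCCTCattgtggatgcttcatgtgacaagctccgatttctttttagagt
Cd53 (chr3:106790100-106790399, minus strand): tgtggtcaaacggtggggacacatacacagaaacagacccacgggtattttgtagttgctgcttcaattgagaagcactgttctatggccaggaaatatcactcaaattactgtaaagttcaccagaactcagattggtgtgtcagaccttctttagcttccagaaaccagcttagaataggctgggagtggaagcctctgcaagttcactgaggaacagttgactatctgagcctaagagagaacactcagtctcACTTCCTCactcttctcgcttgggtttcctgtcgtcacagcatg

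The vehicle cultures carried high levels of most listed genes that are known as disease-associated microglia genes in mouse models of neurodegeneration. This list overlaps the identity lists, since Lyz2 and Cd68 are also pan-macrophage genes here, and Spp1 was not measured. All 22 measured members were above the olfactory receptor level and 18 were in the highest 10.0%, with a median percentile of 99.1. Apoe had 13.39, 13.48 and 13.54, and Gpnmb, a transmembrane glycoprotein gene of lipid-laden macrophages, had 13.43, 13.36 and 13.41. Cst7, which encodes the cystatin F inhibitor of cathepsins and is one of the defining members in vivo, had 7.18, 7.29 and 7.11, Ch25h had 7.34, 7.26 and 7.80, and Csf1 had 8.63, 8.39 and 7.93, and these are signals of different probes. The 6 highest of this list, Ctsd, Ctsb, Apoe, Gpnmb, Lyz2 and Cd68, had SDs of 0.03 to 0.08, whereas Csf1 had an SD of 0.36.

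Immediate-early and dissociation genes, which tissue handling induces, were present 3 days after isolation. All 15 measured members were above the level and 5 were in the highest 10.0%. Atf3, a stress-induced transcription factor gene, had 11.96, 12.27 and 12.21, Klf6 averaged 10.98 ± 0.19, Dusp1 10.76 ± 0.25 and Jun 10.59 ± 0.21. Egr1 averaged 9.39 ± 0.13, and the lowest were Hspa1a (7.42 ± 0.12), Ier2 (7.06 ± 0.22) and Fosb (6.86 ± 0.09). Cell cycle genes were likewise above the level in all 22 measured cases, with 6 in the highest 10.0%. Mki67, a marker of proliferating cells, had 10.66, 10.60 and 10.60, Ccnb2, a mitotic cyclin gene, had 11.18, 11.32 and 11.24, and Pcna, the replication clamp, had 12.52, 12.09 and 12.22. Levels averaged over a culture do not say which share of the cells was cycling.

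Among the prostanoid receptors, Ptger4 encodes EP4, the receptor on which AE1-329, given to other groups of the series, acts. Ptger4 had 9.26, 9.04 and 9.19, at percentile 75.6. Ptger2, the gene of the EP2 receptor, which like EP4 couples to cAMP, had 7.02, 6.94 and 7.19, and Ptger1, the gene of EP1, had 8.05, 8.17 and 8.09. Ptger3, the gene of EP3, had 5.60, 5.62 and 5.54. The SDs of the EP receptor genes were 0.04 to 0.13, and Ptger4, Ptger1 and Ptger2 were above the olfactory receptor level on all arrays while Ptger3 was not. Of the other prostanoid receptors, the thromboxane receptor gene Tbxa2r (7.50 ± 0.12) and the prostacyclin receptor gene Ptgir (7.05 ± 0.14) were above it, and Ptgdr (6.77 ± 0.06), Ptgdr2 (6.63 ± 0.05) and Ptgfr (6.25 ± 0.04) were not. This made 5 of 9 members (55.6%), against 62.3% of all genes, and none was in the highest 10.0%. With the 99th percentile of olfactory receptor genes as the level, 2 of the 9 were above it, against 43.8% of all genes, and with the 95th percentile of vomeronasal receptor genes 8 were, against 81.4%.

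Purinergic receptors, which sense ATP and its products, split into a high and a low set. P2rx4, an ATP-gated channel gene, had 11.65, 11.83 and 11.84, P2ry6, the UDP receptor gene that promotes phagocytosis, had 11.48, 11.45 and 11.59, and P2rx7 had 10.31, 10.29 and 10.27. P2ry13, P2ry12 and P2ry2 followed between percentiles 68.4 and 89.2, and P2rx1, P2rx3 and P2ry4 were not above the level. In all 8 of 14 members were above it (57.1%). Chemokine and chemoattractant receptors were mostly low, with 11 of 25 members above the level (44.0%), below the 62.3% of all genes, and a median percentile of 28.8. The exceptions were receptors for complement fragments and lipids, namely C3ar1 (13.40, 13.22 and 13.26), C5ar1 (11.38 ± 0.07), C5ar2 (9.99 ± 0.08) and the platelet-activating factor receptor gene Ptafr (11.40 ± 0.02), together with Cx3cr1 and Cxcr4 (10.93 ± 0.03). Ccr2, the receptor that marks inflammatory monocytes, had 4.99, 5.03 and 4.94, and Cxcr5 and Cxcr2, of lymphocytes and neutrophils, had means of 4.96 ± 0.08 and 4.90 ± 0.08.

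Receptors for cytokines and growth factors were more widely present, with 27 of 34 members above the level (79.4%) and 16 in the highest 10.0%. Both interferon-gamma receptor chains were high, Ifngr1 with 11.75, 11.52 and 11.64 and Ifngr2 with 12.29, 12.35 and 12.31. Ifnar2, a chain of the type I interferon receptor, had 12.10, 11.80 and 11.85, Il10rb, a shared chain of the interleukin-10 receptor, averaged 12.04 ± 0.02 and Tnfrsf1b, a TNF receptor gene, 11.75 ± 0.22. Flt3, the decoy receptor gene Il1r2 and Il18r1 were not above the level. Of the toll-like receptors, 9 of 10 measured members were above it. Of the endosomal nucleic acid sensors, Tlr13 had 12.25, 11.89 and 11.94, Tlr7 had 11.90, 11.75 and 11.87, and Tlr8 averaged 10.85 ± 0.08. Tlr4, the lipopolysaccharide receptor gene, had 9.34, 9.27 and 9.60, Tlr3, which senses double-stranded RNA, had 9.55, 8.89 and 8.98, and Tlr12 was not above the level (6.31 ± 0.25).

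Fc receptors divided by antibody class. Receptors for IgG were high, with Fcgr3 at 12.35, 12.28 and 12.37, the inhibitory Fcgr2b at 11.41, 11.21 and 11.17, Fcgr1 at 10.65, 11.06 and 11.20 and Fcgr4 at 10.79, 10.66 and 10.74. The IgE receptor genes Fcer1a and Fcer2a and the IgA and IgM receptor gene Fcamr had means of 4.66 to 5.70 and were not above the level. Over the list, 7 of 11 members were above it (63.6%), and 6 were in the highest 10.0%. Scavenger and phagocytic receptors had 20 of 26 members above the level (76.9%) and 13 in the highest 10.0%, with the fatty acid and oxidized lipid receptor gene Cd36 at 12.67, 12.55 and 12.69, the apolipoprotein E receptor gene Lrp1 at 12.44, 12.63 and 12.63, Stab1 at 12.54 ± 0.09, Itgb5 at 12.27 ± 0.20 and Msr1 at 12.25 ± 0.08. Olr1, Cd163 and Havcr1 were not above it. Among C-type lectins and Siglecs, 15 of 23 members were above the level (65.2%), against 62.3% of all genes, with the beta-glucan receptor gene Clec7a at 11.88, 11.89 and 11.99, Clec12a at 11.28 ± 0.09 and Cd33 at 10.32 ± 0.20. Mgl2, Cd69 and Clec9a had means of 4.95 to 5.64.

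Of 22 measured neurotransmitter receptors 11 were above the level, against 62.3% of all genes, and none was in the highest 10.0%. With the 99th percentile of olfactory receptor genes 3 were above, against 43.8% of all genes, and with vomeronasal receptor genes 20 were, against 81.4%. Gpr183, an oxysterol receptor gene placed in this list, had 9.85, 9.59 and 9.90, and Cnr2, the cannabinoid CB2 receptor gene, had 7.61, 7.96 and 7.98. The glutamate receptor subunits Grin2b and Gria2 and the histamine receptor Hrh4 had means of 5.67, 5.34 and 4.94. Ion channels that have been studied in microglia were above the level in 18 of 20 cases (90.0%), among them the mechanosensitive channel gene Piezo1 (11.20, 11.67 and 11.67), the proton channel gene Hvcn1 (11.13 ± 0.17), Clic1 (11.33 ± 0.06), Trpv2 (10.79 ± 0.19) and the inward rectifier gene Kcnj2 (10.54 ± 0.04). Kcna5 and Trpm2 were not above it. Of the nuclear receptors 13 of 22 were above the level (59.1%), against 62.3% of all genes, and Pparg (10.55, 10.71 and 10.64) and its partner Rxra (10.36, 10.44 and 10.52) were the 2 in the highest 10.0%. The oestrogen receptor gene Esr2, Nr3c2 and Thrb had means of 5.90 to 6.01.

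On the cell surface, integrins and adhesion molecules were above the level in 23 of 23 cases, with 13 in the highest 10.0%. Itgav had 11.81, 11.91 and 11.85, Itgb5 had 12.04, 12.41 and 12.35, Itga6 averaged 11.80 ± 0.11, and the tetraspanin genes Cd81 and Cd9 averaged 12.35 ± 0.14 and 11.53 ± 0.04. Itgb8, Vcam1 and Itgb7 had means of 7.01 to 7.20. Among genes of antigen presentation, B2m, the light chain of class I molecules, had 12.96, 12.76 and 12.85, and Tapbp, Tap2 and Tap1, of peptide loading, averaged 11.10 ± 0.19, 8.84 ± 0.05 and 8.80 ± 0.36. The class II genes H2-Ab1 (6.68, 6.74 and 6.98) and H2-Aa (5.62, 5.69 and 5.71) and the class II transactivator gene Ciita (6.70, 6.86 and 6.68) were also measured. Of the list 15 of 16 members were above the level (93.8%), which included H2-Ab1 and Ciita by a narrow margin, and with the 99th percentile of olfactory receptor genes 9 were (56.2%), against 43.8% of all genes.

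Secreted products followed a narrow pattern in complement. C1qa, C1qb and C1qc, the 3 chains of C1q, were the only members in the highest 10.0%, with C1qb at 13.29, 13.14 and 13.19, C1qc at 13.10, 12.92 and 12.98 and C1qa at 11.45, 11.86 and 11.90. Properdin, encoded by Cfp, had 8.81, 9.35 and 9.57, and C2 averaged 8.55 ± 0.21. The protease gene C1s1 and the terminal components C7 and C9 had means of 4.28, 5.20 and 4.46. In all 6 of 16 components were above the level (37.5%). Chemokines were above it in 16 of 30 cases (53.3%) and in the highest 10.0% in 4, namely Ccl3 (13.37, 13.12 and 13.22), Ccl9 (12.00 ± 0.02), Ccl6 (11.54 ± 0.12) and Cxcl16 (11.19 ± 0.13). Ccl4 had 10.00, 10.26 and 10.36 and Ccl2, which draws monocytes, had 10.07, 10.16 and 10.37. Cxcl13, Ccl8 and Cxcl5 had means of 4.75 to 5.25. Cytokines were above the level in 18 of 36 cases, and Mif (12.21 ± 0.12) and Tgfb1 (11.57 ± 0.10) were the 2 in the highest 10.0%. Tnf had 9.33, 9.36 and 9.62, Il1rn, which encodes the interleukin-1 receptor antagonist, had 8.95, 9.02 and 9.04, and Il1a had 8.95, 8.14 and 8.64. Il6 had 4.74, 4.86 and 4.47, and Il7 and Tnfsf8 had means of 4.29 and 4.59, so these 3 were not above the level.

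Growth and trophic factors were above the level in 19 of 26 cases (73.1%). Grn, which encodes progranulin, had 13.02, 13.07 and 13.17, and Igf1, a trophic factor for neurons and oligodendrocytes, had 12.76, 12.57 and 12.60. Thbs1, which encodes thrombospondin-1, had 11.89, 12.04 and 11.21, lowest on replicate 3. Fgf1, Bmp2 and Vegfc had means of 5.98 to 6.04 and were not above the level. Lipid carriers, lysozymes and galectins were above it in 14 of 15 cases (93.3%), with the lipoprotein lipase gene Lpl at 13.01, 12.92 and 12.98, Lgals3 at 12.79, 12.96 and 12.98 and Lgals1 at 12.81 ± 0.02. Apod was not (5.79 ± 0.33). Cathepsins, proteases and their inhibitors were above it in 30 of 32 cases (93.8%) and in the highest 10.0% in 18, with a median percentile of 94.0. Ctsz had 12.87, 13.10 and 13.13, whereas Mmp3 and Plat were not above the level and Mmp9 averaged 6.88 ± 0.22.

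**Figure D3:**
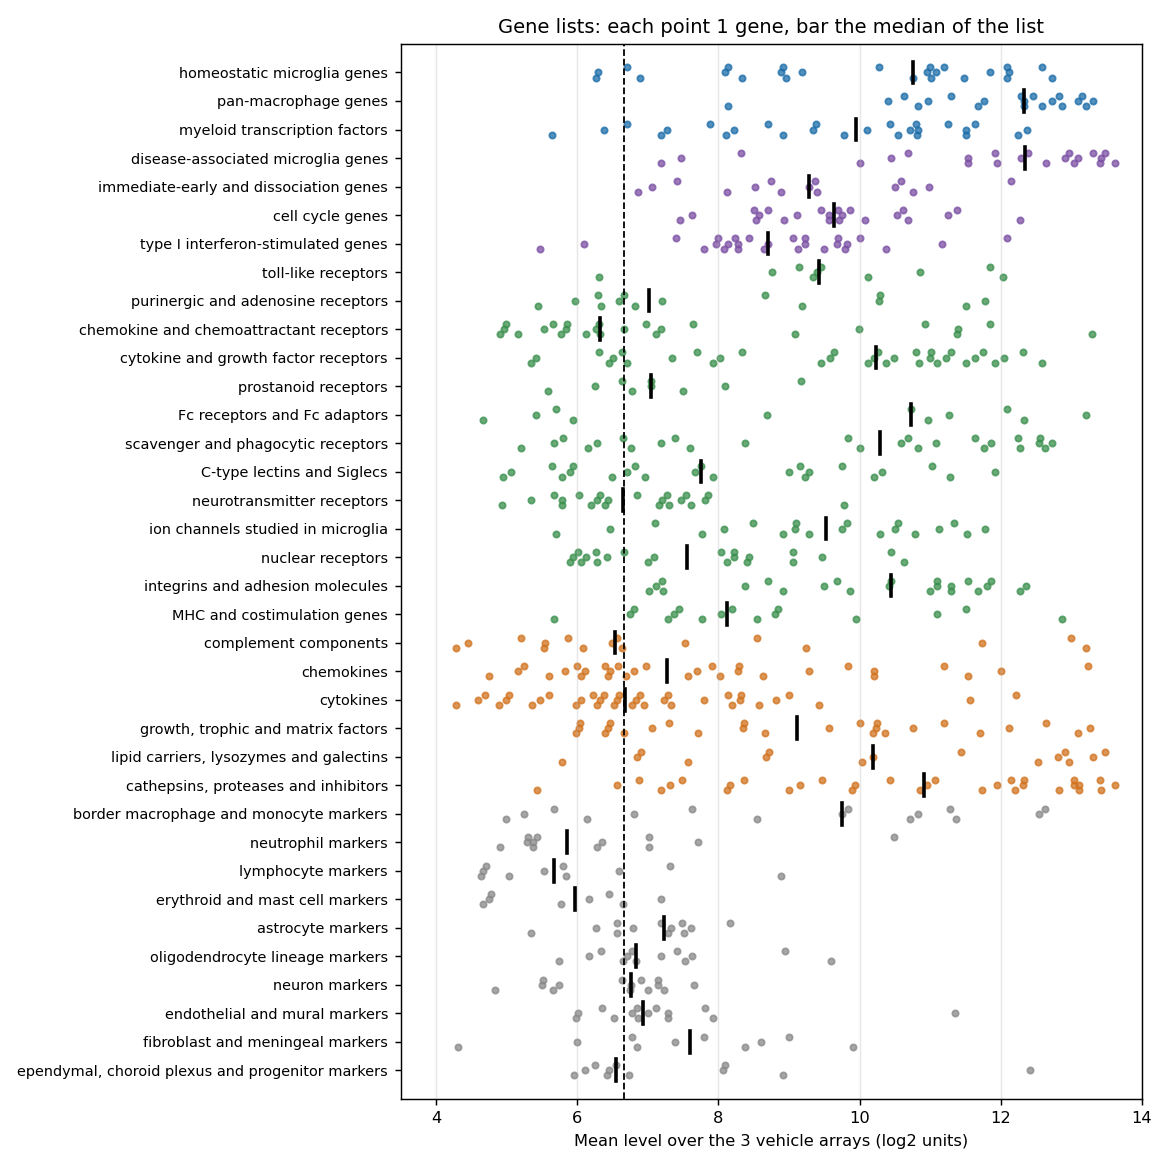
Mean level over the 3 vehicle arrays (log2 units) of each measured member of 36 gene lists, 1 point per gene, with a black bar at the median of the list and the dashed line at the mean olfactory receptor level. Blue marks identity lists, purple states, green receptors and surface molecules, orange secreted products and grey markers of other cells, and the pan-macrophage and disease-associated lists had the highest median percentiles at 99.1 each.

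Markers of other cells were examined in 10 lists. In arrays on whole cultures, fewer cells of a type and less RNA per cell cannot be told apart. Lymphocyte markers had 2 of 10 members above the level, erythroid and mast cell markers 1 of 8 (12.5%) and neutrophil markers 4 of 12 (33.3%), all under the 62.3% of all genes. Ms4a1, which encodes the B cell antigen CD20, had 4.62, 4.75 and 4.55, the neutrophil gene Ly6g had 5.31, 5.48 and 5.09 and S100a9 had 6.37, 6.28 and 6.20. The neutrophil list had 1 member in the highest 10.0%, Csf3r, the receptor for the growth factor G-CSF, with 10.56, 10.42 and 10.50. Cd79b, a B cell receptor gene, had 8.87, 8.94 and 8.86, while its partner Cd79a had 4.59, 4.95 and 4.60.

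Markers of border macrophages and monocytes were mixed. Of 15 measured members 10 were above the level (66.7%), and 6 were in the highest 10.0%. Mrc1, the mannose receptor gene of perivascular and meningeal macrophages, had 10.64, 10.91 and 10.95, Ms4a7 had 10.75, 10.55 and 10.82, Folr2 had 11.10, 11.38 and 11.63, and Stab1, Cd36 and Clec12a were named with the receptors. Cd163 (5.60, 5.85 and 5.58), Plac8 (5.34, 5.23 and 5.16) and Ccr2 were not above the level. Cd36, Stab1, Cd163, Ccr2 and Clec12a are also members of other lists used here.

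Of the markers of neural cells, those above the level were 8 of 12 astrocyte markers (66.7%), 7 of 13 oligodendrocyte lineage markers (53.8%) and 8 of 14 neuron markers (57.1%), against 62.3% of all genes, and no member of the 3 lists was in the highest 10.0%. Gfap, the astrocyte filament gene, had 7.19, 7.58 and 7.77, while Aqp4 had 6.53, 6.60 and 6.56 and S100b had 6.34, 6.28 and 6.15. The myelin gene Mbp had 8.93, 9.05 and 8.88 and Cnp had 9.29, 9.71 and 9.79, and Mobp and Enpp6 were not above the level. The neuronal genes Snap25 and Syp had 7.53, 7.56 and 7.88 and 6.97, 7.31 and 7.42, while Nefl and Nefm had means of 5.50 and 4.84. At the 99th percentile of olfactory receptor genes, 1 astrocyte, 2 oligodendrocyte and 0 neuron markers were above the level, against 43.8% of all genes. With vomeronasal receptor genes 11, 12 and 10 were, against 81.4%.

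The endothelial and mural, fibroblast and meningeal, and ependymal, choroid plexus and progenitor lists held 2 genes in the highest 10.0%, Acta2 and Ttr. Acta2, which encodes the actin of smooth muscle cells and pericytes, had 11.51, 11.69 and 10.86, while the endothelial receptor gene Kdr and the cadherin gene Cdh5 averaged 7.28 ± 0.08 and 7.12 ± 0.14 and the pericyte gene Rgs5 5.98 ± 0.09. Ttr, which encodes transthyretin, a product of the choroid plexus, had 12.59, 12.83 and 11.85, while the ependymal gene Tmem212 had 6.05, 6.00 and 5.84. Of the endothelial and mural list 10 of 14 members were above the level (71.4%), of the fibroblast and meningeal list 7 of 10 (70.0%) and of the ependymal, choroid plexus and progenitor list 4 of 11 (36.4%). The fibroblast collagen gene Col1a1 had 8.64, 8.83 and 8.35, and Igfbp2 had 9.70, 10.70 and 9.29, with an SD of 0.72.

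The 3 vehicle arrays ranked genes almost alike. Across genes, which are not independent replicates, Pearson's r was 0.9936 between replicates 1 and 2, 0.9935 between 1 and 3 and 0.9958 between 2 and 3, and the median absolute difference between 2 arrays was 0.130, 0.133 and 0.108 log2 units. The median SD of a gene was 0.109, against 0.063, 0.065 and 0.066 in the groups with Aβ42 alone, AE1-329 alone and both. Over the 2 arrays left it was 0.076 without replicate 1, 0.094 without replicate 2 and 0.092 without replicate 3. An SD over 2 arrays is not on the scale of one over 3. The median absolute difference between 2 arrays was 0.067 to 0.080 log2 units in the 3 other groups. The spread was 0.118 for genes above the olfactory receptor level, 0.097 for those not above it and 0.099 for the highest 10.0%. Between some pair of vehicle arrays 118 genes differed by at least 1 log2 unit, against 49, 88 and 38 genes in the 3 other groups. Of the lists with 10 or more members, the widest by median SD was that of the type I interferon-stimulated genes (0.293). The ependymal, choroid plexus and progenitor list (0.275) and the fibroblast list (0.214) followed, against 0.082 for pan-macrophage and 0.094 for homeostatic genes.

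Single arrays stood at least 1 log2 unit apart from both others in 32 genes. On replicate 1, 18 genes were higher than on both others, among them Hdac4, a histone deacetylase gene (10.66, 8.87 and 9.07), Paip1, a regulator of translation (11.81, 10.21 and 10.29), and Snrpb2, a spliceosome gene (11.98, 10.75 and 10.80). Anp32-ps, Bex1, Tceal1, Ndufaf1, Emcn, Cmc1, Dcun1d5 and Mphosph6 belonged to the same set. On replicate 3, 12 genes were lower than on both others. They included Kcnj13, a potassium channel gene of the choroid plexus (8.46, 8.66 and 6.99), Igf2, a growth factor of choroid plexus and meninges (10.38, 10.54 and 9.06), and Sostdc1, a secreted inhibitor (8.16, 8.45 and 6.92). Npr3, Slc4a10, Gmnc, Gpx8, Igfbp7, Cldn1, Atp1b1 and Timp3 were also among them. The remaining 2 genes were Lrmda, higher on replicate 3 (7.37, 7.04 and 8.95), and Ifit3, lower on replicate 1 (8.31, 9.33 and 10.03).

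Whether the same replicate number stood apart in cultures that these genes were not chosen from was tested in the 9 arrays of the 3 other groups. For each gene, limma set 1 replicate number against the mean of both others with the treatment in the model, and p was adjusted by Benjamini-Hochberg over all 19938 genes. The labels number the replicates in each group alike, and that a number marks the same litter throughout is not spelled out. The test was added after the vehicle values had been seen. It called 452 genes (2.27%) lower and 178 (0.893%) higher in replicate 3, and 190 (0.953%) lower and 60 (0.301%) higher in replicate 1. These counts depended on the arrays used. With 1 group left out, replicate 1 had 24, 2 or 3 genes lower and 8, 1 or 4 higher, and replicate 3 had 96, 28 or 21 higher, without the Aβ42-alone, AE1-329-alone or combined-treatment arrays in that order. Replicate 3 had 211 and 212 genes lower without the AE1-329-alone and the combined-treatment arrays. With limma's prior following the level and fitted robustly, replicate 1 had 563 lower and 199 higher and replicate 3 had 381 higher. All 12 genes that were low on vehicle replicate 3 were called lower there, with differences from -1.26 to -0.70. Kcnj13 differed by -1.26 ± 0.12 (SE, adjusted p = 0.000408), Igf2 by -1.14 ± 0.04 (adjusted p = 1.55e-06) and Gpx8 by -1.13 ± 0.04 (adjusted p = 8.69e-07). In replicate 2 Kcnj13, Igf2 and Gpx8 were higher than in both others, by 1.04 ± 0.12, 0.89 ± 0.04 and 0.85 ± 0.04. The 3 differences of a gene sum to 0, so they are not separate results. Lrmda was higher in replicate 3 by 1.80 ± 0.04 (adjusted p = 9.61e-08), and its 3 other replicate 3 arrays had 8.88, 8.81 and 8.79, against 6.91 to 7.20 on the 6 others.

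The 18 genes that were high on vehicle replicate 1 were not called with that number. By limma 0 of 18 were called higher in replicate 1 of the 9 other arrays (2 had an unadjusted p under 0.05, the median difference was -0.06 and the range -0.22 to 0.39), and 1 was when limma's prior followed the level and was fitted robustly. Hdac4 had 8.62, 8.96 and 8.71 on the other replicate 1 arrays, against 8.53 to 8.93 on the 6 arrays of replicates 2 and 3, a difference of 0.04 ± 0.05 (limma, adjusted p = 0.783). Paip1 differed by -0.12 ± 0.04 (adjusted p = 0.304), and Tceal1 was called lower (-0.20 ± 0.04, adjusted p = 0.0482). Emcn, which encodes an endothelial sialoglycoprotein, had the largest difference of the 18, 0.39 ± 0.08 (adjusted p = 0.0736). Over all genes, deviations of a vehicle array from its group mean correlated with those of the same-numbered arrays at a mean r of 0.297 over 9 pairs of arrays, from 0.004 to 0.496. Over the 18 pairs with different numbers the mean r was -0.149, from -0.425 to 0.179, and the highest of these was above 3 of the 9 same-number values. Deviations within a group sum to 0, so the pairs are not separate measurements.

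**Figure D4:**
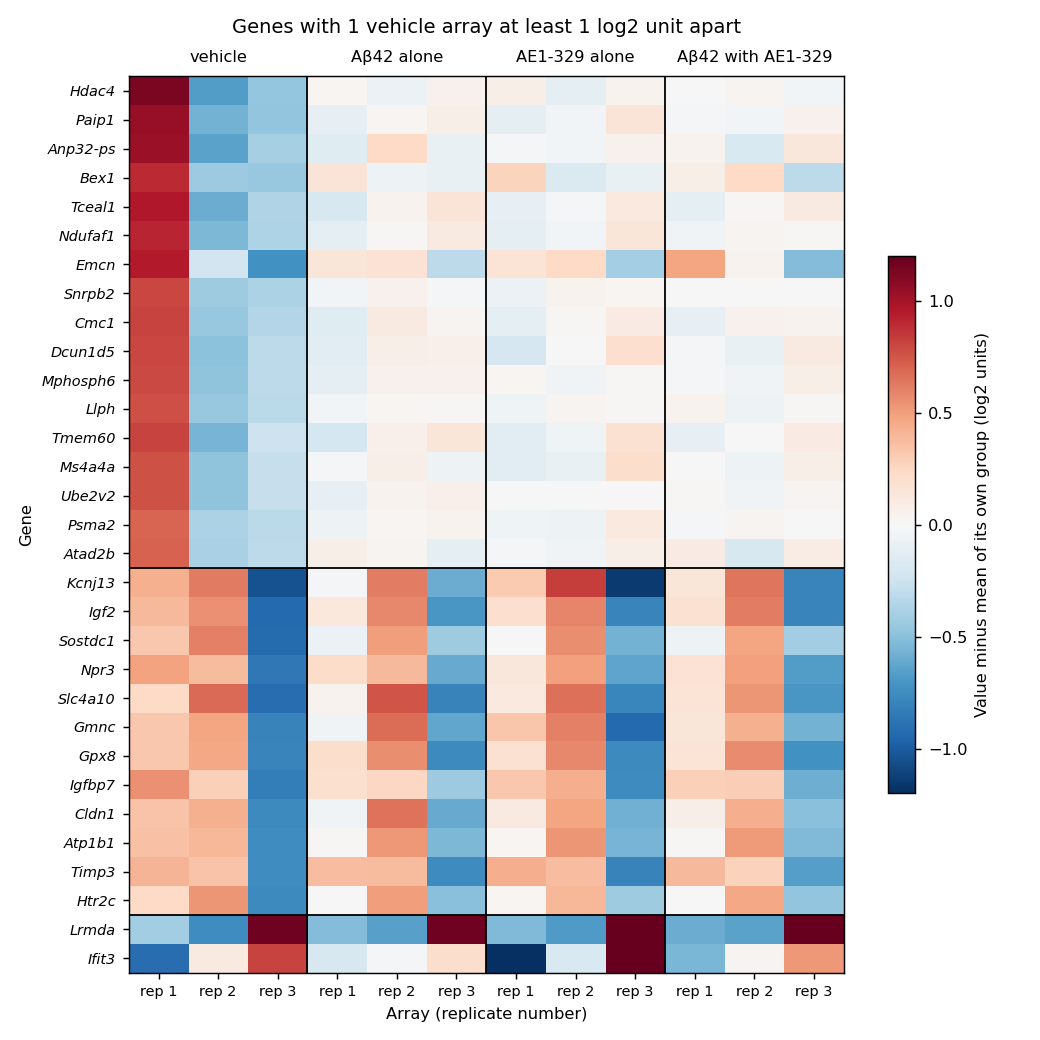
Deviation of each array from the mean of its own group (log2 units, colour, saturated at the ends of the bar) for the genes with 1 vehicle array at least 1 log2 unit apart, without an unnamed microRNA gene, over vehicle and the 3 other groups. The upper block is high on vehicle replicate 1, with 0 of 18 genes called higher in the 9 other arrays by limma (2 at an unadjusted p under 0.05), the middle block is low in replicate 3 of every group, with 12 of 12 genes called in the 9 other arrays, and Lrmda and Ifit3 are at the foot.

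The replicate 3 pattern took in members of several lists, among them markers of choroid plexus, meningeal and mural cells. On vehicle arrays 10 of 10 fibroblast and meningeal markers were lowest on replicate 3, against 40.5% of all genes. So were 8 of 11 ependymal, choroid plexus and progenitor markers and 11 of 14 endothelial and mural markers. Replicate 2 was the highest array in 8 of 11 ependymal, choroid plexus and progenitor markers, 7 of 10 fibroblast markers and 8 of 14 endothelial markers. Among all genes it was the highest in 8433 of 19938. The summed log2 levels of the ependymal, choroid plexus and progenitor list were 81.73, 84.63 and 79.55 on replicates 1, 2 and 3. Those of the fibroblast list were 75.69, 76.93 and 72.40. In the 9 other arrays Ttr differed in replicate 3 by -0.81 ± 0.04 (limma, adjusted p = 1.11e-05), and Folr1, a folate receptor gene of the choroid plexus, differed by -0.76 ± 0.06 (adjusted p = 0.000151). Igfbp2 differed by -1.13 ± 0.04 (adjusted p = 1.55e-06), Acta2 by -0.83 ± 0.05 (adjusted p = 1.62e-05) and the homeostatic list's Sparc by -0.84 ± 0.04 (adjusted p = 3.74e-06). In replicate 2 the same genes were higher than in both others (Ttr by 0.60, Folr1 0.75, Igfbp2 0.92, Acta2 0.50 and Sparc 0.65). Called lower in replicate 3 were 4 of 11 ependymal, choroid plexus and progenitor markers, namely the choroid plexus markers Ttr, Folr1, Clic6 and Kl. So were 5 of 10 fibroblast and 4 of 14 endothelial list members, against 2.27% of all genes in each case. By limma no member of the 3 lists was called higher in replicate 3 (0, 0 and 1 had a higher value at an unadjusted p under 0.05). Other lists had members called lower in replicate 3 as well. Among them were 6 of 26 growth, trophic and matrix factors and 4 of 32 cathepsins, proteases and inhibitors. So were 3 of 34 cytokine and growth factor receptors, 3 of 36 cytokines, 2 of 30 chemokines and 2 of 12 astrocyte markers. Some of these lists also had members called higher in replicate 3, against 0.893% of all genes. They were 3 cytokines, 2 chemokines, 1 of the cathepsin list and 1 astrocyte marker, Gfap (0.24 ± 0.04, limma, adjusted p = 0.00921). Some genes are in more than 1 list, such as Pdgfrb, a mural marker and growth factor receptor. Without the AE1-329-alone arrays the counts for the ependymal, choroid plexus and progenitor list and for the fibroblast list fell to 2 and 2. Without the arrays of the combined treatment the fibroblast count was 3. The homeostatic list had 2 of 25 members called lower by limma (6 at an unadjusted p under 0.05) and 0 higher (0 at an unadjusted p under 0.05). Whether other cells contributed to these levels was not tested.

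Type I interferon-stimulated genes, which encode antiviral effectors and sensors, varied more than any other list of 10 or more members. Irf7, the transcription factor that amplifies the interferon response, had 7.44, 8.35 and 9.04, Rsad2, which encodes viperin, had 8.54, 8.97 and 9.67, and Ifit2 had 7.13, 7.77 and 8.50. Replicate 3 was the highest array in 25 of 27 measured members, against 26.7% of all genes, and replicate 1 was the lowest in 22, against 36.3%. Irf7, Rsad2 and Ifit2 fall outside the naming rule and were picked after their values were seen. As a list, 25 of 27 members (92.6%) were above the olfactory receptor level and 3 were in the highest 10.0%, with Ifitm3 at 11.92, 12.06 and 12.29 and Oasl2 at 10.14, 10.40 and 10.61. Mx1 (5.69, 6.08 and 6.53) and Mx2 (5.31, 5.58 and 5.55) were not above it.

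In the 9 other arrays, limma called 16 of the 27 genes higher in replicate 3, against 0.893% of all genes, and 5 lower in replicate 1, against 0.953%. By limma no member was called lower in replicate 3 or higher in replicate 1, and 0 were at an unadjusted p under 0.05 in either case. Irf7 differed in replicate 3 by 0.49 ± 0.07 (adjusted p = 0.00400) and Mx1 by 0.97 ± 0.14 (adjusted p = 0.00516), while Rsad2 (1.09 ± 0.32, adjusted p = 0.145) and Ifit3 (1.08 ± 0.28, adjusted p = 0.0936) did not pass. On replicates 1, 2 and 3, Rsad2 had 8.37, 8.87 and 11.04 with AE1-329 alone and 11.67, 11.86 and 11.97 with Aβ42 alone. Replicate 3 was the highest in both groups, by a wide gap in one and a narrow one in the other. The 16 calls fell to 4 without the AE1-329-alone arrays and to 2 without those of the combined treatment, and the 5 calls fell to 0 without either of these groups and to 2 without the Aβ42-alone arrays.

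**Figure D5:**
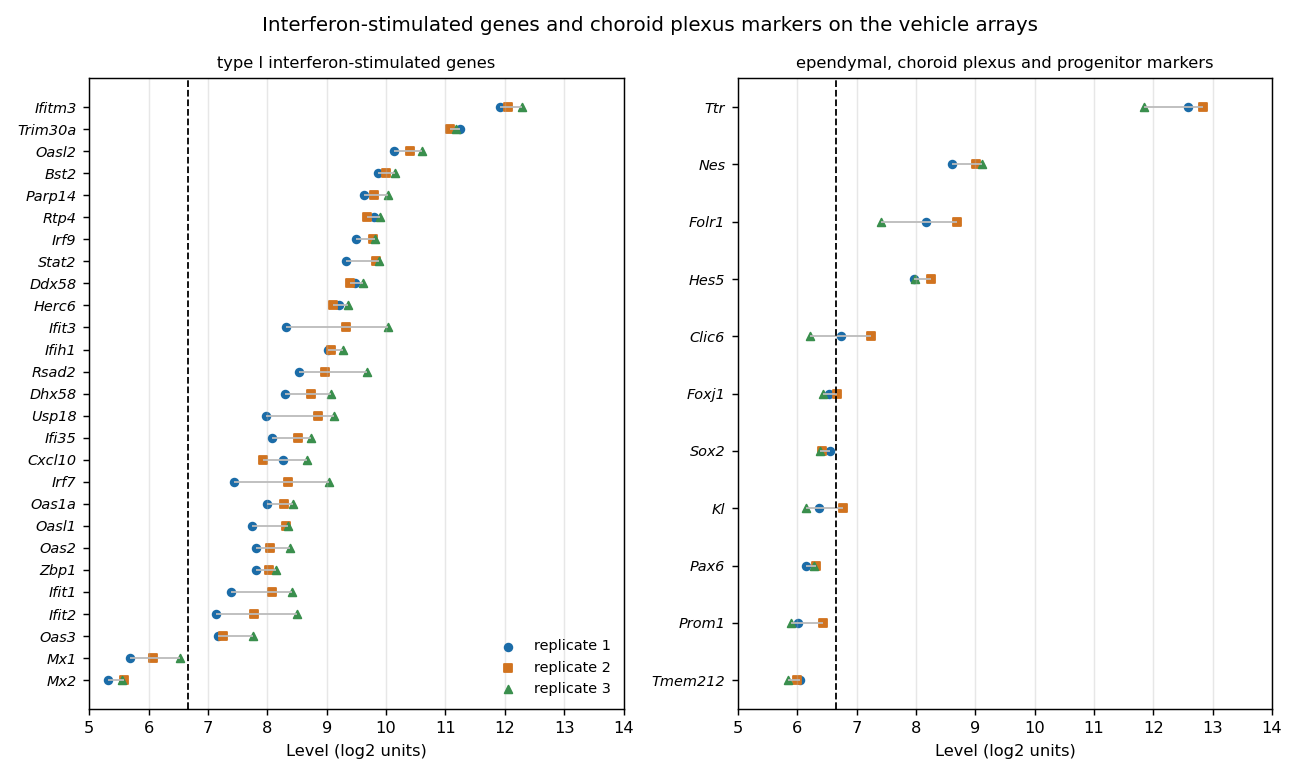
Level (log2 units) of each type I interferon-stimulated gene and of each ependymal, choroid plexus and progenitor marker on the 3 vehicle arrays, with a grey line from the lowest to the highest array and the dashed line at the mean olfactory receptor level. Replicate 3 was highest in 25 of 27 interferon-stimulated genes and lowest in 8 of 11 ependymal, choroid plexus and progenitor markers.

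The promoters of the interferon-stimulated genes shared a sequence that the choice of the list did not use. The pair of GAAA 2 bases apart was present in 12 of the 19 that had a promoter window (63.2%), against 3.89% of all 15614 windows, 4.35% of those of the highest 10.0% of genes and 21.4% of pan-macrophage ones. TGANTCA was in 7 of the 19 (36.8%), against 8.08% of all. Interferon-stimulated genes are known for the first sequence, so its presence describes the list and does not bear on why replicate 3 was high. Of the 12 genes with a match, Ifit3, Rsad2 and Ifit1 varied by over 1 log2 unit between vehicle arrays. So did Irf7, Ifit2 and Usp18, which had no match or no window, and a link between the sequence and the variation was not tested. The promoters of Ifit3 and Rsad2 are printed as examples, with the match, in its reverse complement, in capitals.
Ifit3 (chr19:34583279-34583578, plus strand): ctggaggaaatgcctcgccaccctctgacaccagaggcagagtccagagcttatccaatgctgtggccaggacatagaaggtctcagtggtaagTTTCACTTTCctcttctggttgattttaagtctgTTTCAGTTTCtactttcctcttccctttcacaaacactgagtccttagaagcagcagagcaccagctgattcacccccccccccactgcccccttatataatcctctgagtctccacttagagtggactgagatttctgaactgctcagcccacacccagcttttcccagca
Rsad2 (chr12:26456403-26456702, minus strand): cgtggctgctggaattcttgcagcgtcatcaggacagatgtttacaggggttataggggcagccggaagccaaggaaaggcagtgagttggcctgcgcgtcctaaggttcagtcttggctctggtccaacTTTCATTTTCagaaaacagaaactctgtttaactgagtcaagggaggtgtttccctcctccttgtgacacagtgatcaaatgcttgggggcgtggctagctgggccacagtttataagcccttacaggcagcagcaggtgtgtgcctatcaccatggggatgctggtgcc

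Cell cycle genes also differed by replicate number outside the vehicle group. In the 9 other arrays 13 of 22 were called lower in replicate 1, against 0.953% of all genes, among them Cdk1 (-0.34 ± 0.04, adjusted p = 0.0117) and Mki67 (-0.24 ± 0.04, adjusted p = 0.0175). Called higher in replicate 3 were 4 of 22, against 0.893% of all genes. Of the neuron markers 4 of 14 were called lower in replicate 1 and 3 of 14 higher in replicate 3, and of the astrocyte markers 2 of 12 were called lower in replicate 1, and their part in the cell cycle counts was not tested. On the vehicle arrays Cdk1 had 10.65, 10.46 and 10.47 and Cenpe had 8.60, 8.37 and 8.52, with replicate 1 the highest in both, whereas Ccna2, with 10.41, 10.85 and 10.81, was lowest there. In the vehicle group 13 of 22 members were lowest on replicate 1, against 36.3% of all genes, and 5 were highest on it, against 31.0%. The 13 calls fell to 1 without the Aβ42-alone arrays and to 0 without either of the other groups.

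Sex-linked genes of both kinds were measured on each array. Xist, which is transcribed from the inactive X chromosome of females, had 11.98, 11.84 and 11.61, and the Y-linked genes Uty (8.58, 8.02 and 8.45), Eif2s3y (8.61, 7.71 and 8.08) and Kdm5d (7.62, 7.05 and 7.65) were above the olfactory receptor level on all 3 arrays. All 3 Y-linked genes were lowest on replicate 2, as were 23.2% of all genes. In the 9 other arrays Uty (-0.27 ± 0.05, adjusted p = 0.0278) and Kdm5d (-0.30 ± 0.06, adjusted p = 0.0306) were called lower in replicate 2 by limma, against 0.0702% of all genes, and Eif2s3y was not (-0.06 ± 0.06, adjusted p = 0.822).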

How the data were processed

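Total RNA of 12 cultures was hybridized to Affymetrix Mouse Gene 1.0 ST arrays. Each deposited value is a log2 level of a probe set. The submitters' processing notes list RMA and Partek 6.5 and give no role for either. That they are on a log2 scale was inferred from their range, 2.79 to 13.95, with vehicle array medians of 6.97 to 7.05. Filters and a correction for litter were not given in the sources used here, nor was a build. RMA usually aligns the distributions of arrays, so levels are relative to the bulk of probes on an array. Signal over background is unknown, and 3 arrays limit the precision.

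The platform annotation gave 1 symbol for 21789 of 35556 probe sets, several for 1621 and none for 12146. RefSeq (GRCm38.p6) matched 21698 gene IDs. Those with 1 symbol were used. For 999 genes with more than 1 such probe set, the one with the highest mean over 12 arrays was kept, which left 19938 genes without a filter on dim ones. The 37 lists held 685 distinct genes, 628 of them measured, and the rest were not analysed here. Members, lists and tests were chosen with earlier results of these data known.

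Vehicle arrays were described by levels, percentiles and SDs, with no test. The replicate number was tested in the 9 other arrays by lmFit and eBayes of limma 3.58.1 under R 4.3.3 (terms for replicate and treatment, 4 residual and 4.97 prior degrees of freedom, two-sided, Benjamini-Hochberg over all genes, threshold 0.05), after a check on simulated data. Tables were made with Python 3.11.15 and pandas 2.3.3. Named genes were all members of the homeostatic, pan-macrophage, transcription factor, prostanoid receptor and sex-linked lists, the 6 highest and 3 lowest of each other list, the 30 highest genes, and the 12 largest gaps of 1 array in each direction. Predicted genes, microRNA genes and olfactory receptors were counted but not named by this rule. The heat map of single arrays shows its whole set apart from an unnamed microRNA gene. Alternatives were another percentile or gene family for the level, the mean of 3 arrays, the mean of probe sets, quantile normalization again, each replicate left out, and, for the replicate test, a trend with robust prior and each group left out.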

Additional observations from a re-analysis of the deposited data

How the results depend on the processing

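The share of genes above the olfactory receptor level was 62.3%, and 43.8% with the 99th percentile of olfactory receptor genes, 81.4% with vomeronasal receptor genes, 65.1% with the mean of the 3 arrays, 61.9% with the mean of probe sets and 62.9% to 63.3% with 1 replicate left out. With the 99th percentile, members above the level numbered 7 for chemoattractant receptors, 2 for prostanoid receptors, 3 for neurotransmitter receptors, 9 for MHC genes, 10 for cytokines, 2 for sex-linked genes, 1 each for neutrophil, lymphocyte and astrocyte markers, 0 for erythroid and for neuron markers, and 2 each for oligodendrocyte and endothelial markers. With vomeronasal receptor genes they numbered 13 for purinergic, 20 for chemoattractant, 8 for prostanoid, 20 for neurotransmitter and 22 for nuclear receptors. Further counts were 11 for complement, 26 for chemokines, 5 each for lymphocyte and erythroid markers and 12 for oligodendrocyte markers. The ependymal, choroid plexus and progenitor list had 11. With the mean of the 3 arrays erythroid markers numbered 2. The median SD of 0.109 was 0.076 to 0.094 with 1 replicate left out, lowest without replicate 1. Those values are SDs over 2 arrays and not on the scale of one over 3. For the replicate test on the 9 other arrays, the robust prior with a trend called 199 genes higher and 563 lower in replicate 1 and 381 higher in replicate 3, with 13 interferon-stimulated genes lower in replicate 1 and 1 of the 18 genes high on vehicle replicate 1. Without the Aβ42-alone arrays the calls were 8 higher and 24 lower in replicate 1 and 96 higher in replicate 3, with 2 interferon-stimulated and 1 cell cycle gene lower in replicate 1. Without the AE1-329-alone arrays the calls were 1 higher and 2 lower in replicate 1, and 28 higher and 211 lower in replicate 3. They included 0 interferon-stimulated and 0 cell cycle genes lower in replicate 1, and 4 interferon-stimulated genes higher in replicate 3. Lower in replicate 3 were 2 members of the ependymal, choroid plexus and progenitor list and 2 fibroblast markers. Without the combined-treatment arrays the calls were 4 higher and 3 lower in replicate 1, and 21 higher and 212 lower in replicate 3. They included 0 interferon-stimulated and 0 cell cycle genes lower in replicate 1. In replicate 3 they included 2 interferon-stimulated genes higher and 3 fibroblast markers lower. Leaving out a group leaves fewer samples for the fit. The 12 genes low on vehicle replicate 3 were called lower under all 5 alternatives of that test. The count of 32 genes with 1 array apart was 28 with the mean of probe sets and 34 after quantile normalization again. No paired analysis was possible because the vehicle results come from no test, since no treatment contrast was made here. That was a choice and not a limit of the design, since all 4 groups carry the numbers 1 to 3. A contrast with the replicate number as a term could have been made. The replicate test on the 9 other arrays had terms for both replicate number and treatment. Levels of dim genes are limited by background, which the deposited values do not show.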
